A study of Bos taurus with 8 samples.

Results

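The citric acid cycle of bovine embryonic stem cells (bESCs) was followed through the transcripts of 9 of its enzymes, CS, IDH2, IDH3A, IDH3B, OGDH, DLST, SUCLG1, FH and MDH2. The members were chosen by name, with earlier results of these data known. They are 9 of the 32640 genes listed in the count table. All 9 had a row, and all 9 passed the filter on low counts that left 15744 genes for testing.

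The cycle runs in the mitochondrial matrix. It joins acetyl-CoA to oxaloacetate, oxidizes the resulting citrate back to oxaloacetate, and passes the electrons on to the respiratory chain as NADH and reduced ubiquinone. Its intermediates also leave for other uses. Citrate feeds lipid synthesis, and alpha-ketoglutarate is a cosubstrate of the enzymes that remove methyl groups from DNA and histones, which is why the cycle is followed in pluripotent cells.

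The bESC lines were 4 in number, named A, C, D and E, and RNA was sequenced from each after growth in 5% O2 on MEF (a feeder layer of irradiated CF1 mouse embryonic fibroblasts) and again in feeder-free culture on vitronectin, an adhesive matrix protein. Each line gave 1 library per condition, so n = 4 per condition and 8 libraries in all. All cells were Bos taurus, labelled XX, were derived from blastocysts made in vitro, and grew in NBFR medium, which holds FGF2 and the WNT inhibitor IWR-1. The sample titles name a medium with Activin A in both conditions, while the methods describe Activin A for feeder-free culture. Cells on MEF were at passage 15 to 17 and feeder-free cells at passage 20 to 22, so the effects of passage and of matrix cannot be told apart. If Activin A was in the feeder-free medium alone, its effects cannot be told apart from these either. The comparison asks how transcripts differ once adapted lines leave the feeder layer in low oxygen.

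Total counts on genes ran from 44268717 to 54296425 on MEF and from 49671478 to 102351560 in feeder-free conditions. POU5F1, the core pluripotency factor, lay between 1725 and 2341 CPM (counts scaled to the TMM-adjusted library total) in all 8 libraries. The 11 pluripotency genes tested summed to 6033 to 6671 CPM on MEF and to 5208 to 5840 CPM in feeder-free conditions, with 0 called in the unpaired edgeR test. Of the 11, 8 were lower and 3 higher without feeders. An unadjusted P-value under 0.05 in that test was found for 8 of the 11, against 21.6% of all genes tested. In 4 of 4 lines 7 were lower and 2 higher, against 20.7% and 20.2% of all genes. A list of 20 fibroblast and feeder genes, 18 of them tested, summed to 682 to 801 CPM on MEF and to 419 to 1512 CPM in feeder-free conditions, and FAP had too few counts to be tested. Of these, COL1A2 lay at 0.680 to 4.65 CPM on MEF and at 0 to 0.414 CPM in feeder-free conditions. CDX2 and SOX17, markers of trophoblast and endoderm, had too few counts to be tested. The 5 tested of 9 trophoblast genes summed to 22.3 to 38.3 CPM on MEF and to 41.6 to 114 CPM without feeders. For the 3 tested of 7 hypoblast and endoderm genes the sums were 4.63 to 15.2 and 3.99 to 6.64 CPM. The 3 tested mesoderm genes summed to 2.31 to 8.30 and to 7.52 to 11.8 CPM. For the 3 tested neural genes the sums were 26.3 to 179 and 89.6 to 333 CPM. In the marker lists of fibroblasts, trophoblast, endoderm, mesoderm and neural cells the unpaired quasi-likelihood test of edgeR called 0 genes, while the fit paired by line, described below, called COL3A1, POSTN, KRT7 and EOMES as higher and COL1A2, PRRX1 and GATA2 as lower without feeders. Of these, unpaired DESeq2 called all but POSTN and EOMES, and the likelihood ratio test called COL3A1, KRT7, COL1A2 and PRRX1. Of the pluripotency genes the paired fit and DESeq2 called FGF2 as higher and OTX2 as lower. By adjusted P-value alone the paired fit passed 2 of them as higher and 5 as lower, against 1207 and 1279 of all genes tested. In such bulk libraries fewer cells of a type and less RNA per cell cannot be told apart, and the part of feeder RNA in the values that follow was not tested.

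Between bESCs on MEF and feeder-free bESCs, 0 of the 9 cycle enzymes were upregulated and 0 downregulated in the edgeR quasi-likelihood test. A gene was called where its P-value, after Benjamini-Hochberg adjustment, was below 0.05 and its level changed 1.5-fold or more. Over all genes tested 1.73% were called, 0.724% as higher and 1.00% as lower. A count of 0 among 9 genes is therefore near what the background share gives. At an unadjusted P-value under 0.05, 1 of the 9 passed (IDH3A), against 21.6% of all genes. The likelihood ratio test of edgeR, DESeq2 and limma-voom also called 0 of the 9. Over all 15744 genes they called 448, 695 and 79 as higher and 389, 516 and 150 as lower. These are small shares too, so 0 among 9 genes is again near the background.

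**Figure D1:**
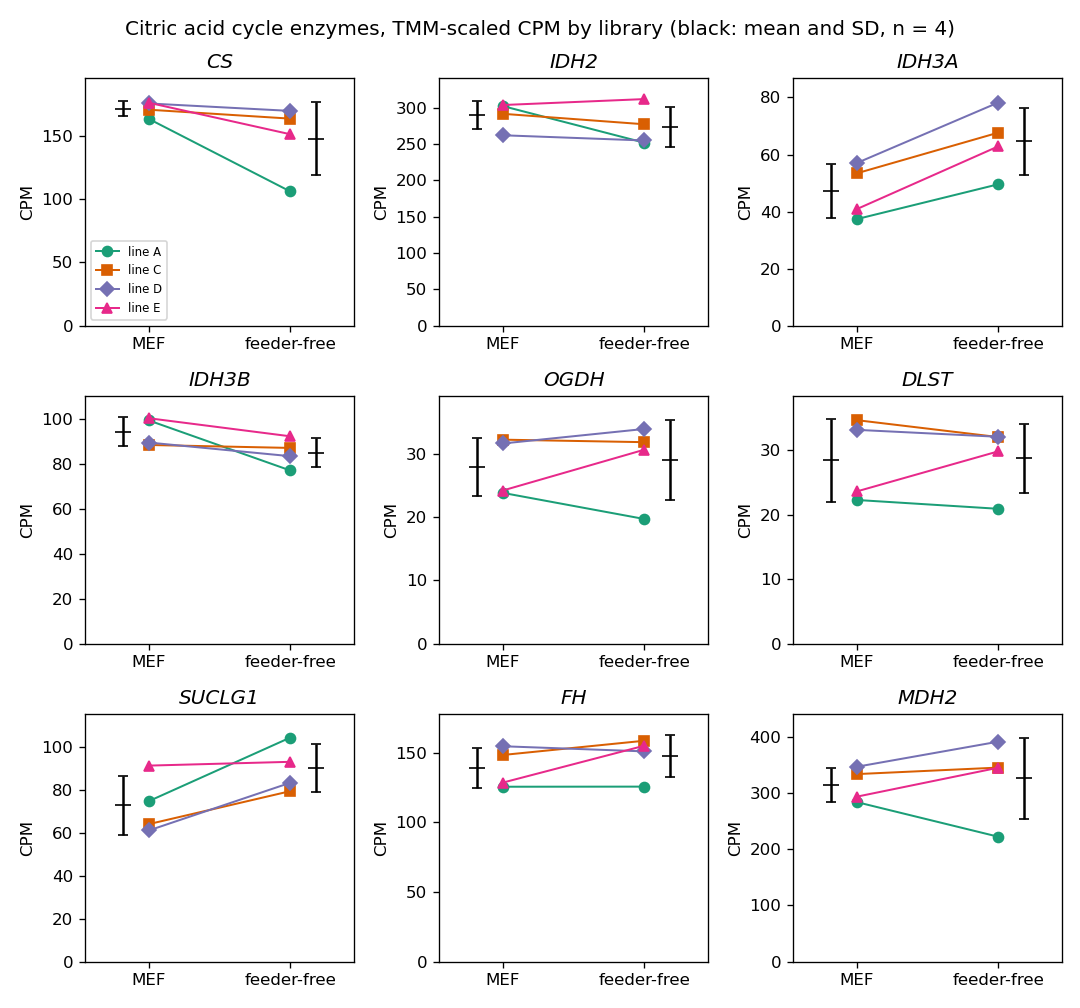
TMM-scaled CPM (vertical axes from 0) of the 9 citric acid cycle enzymes in bESCs on MEF and in feeder-free conditions, with the 2 libraries of a line joined and the mean and SD (n = 4) in black at the sides. IDH3A goes up in every line, from 47.1 to 64.6 CPM on average, CS goes down in every line, and the ranges of both conditions overlap in each panel.

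The intervals bound the size of the differences. The 95% confidence interval of the fold change lay wholly within 1.5-fold in either direction for 7 of the 9 genes, against 26.5% of all genes tested. The exceptions were IDH3A and SUCLG1. With the MEF C or the MEF D library left out the count was 4. The members are well counted, with 928 to 40142 counts per library, so that counting error alone is at most 3.28% of a value. By mean CPM they lay from the 60.1 percentile of all tested genes (DLST) to the 96.9 percentile (MDH2). The 26.5% includes genes with fewer counts, and a share among genes of like level was not computed. The fitted log2 fold changes (feeder-free over MEF) were positive for 6 members and negative for 3, with a range of -0.22 to 0.45 and a median of 0.05. The median over all genes was 0.01.

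Since each line was grown in both conditions, line can be entered as a paired term (replicate block). The paired edgeR fit called 0 of the 9 by adjusted P-value and fold change, against 5.52% of all genes called higher and 4.53% called lower. Without the fold threshold it called IDH3A as higher, against 7.67% of all genes. The paired interval lay within 1.5-fold for 8 of the 9, against 37.0% of all genes.

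**Figure D2:**
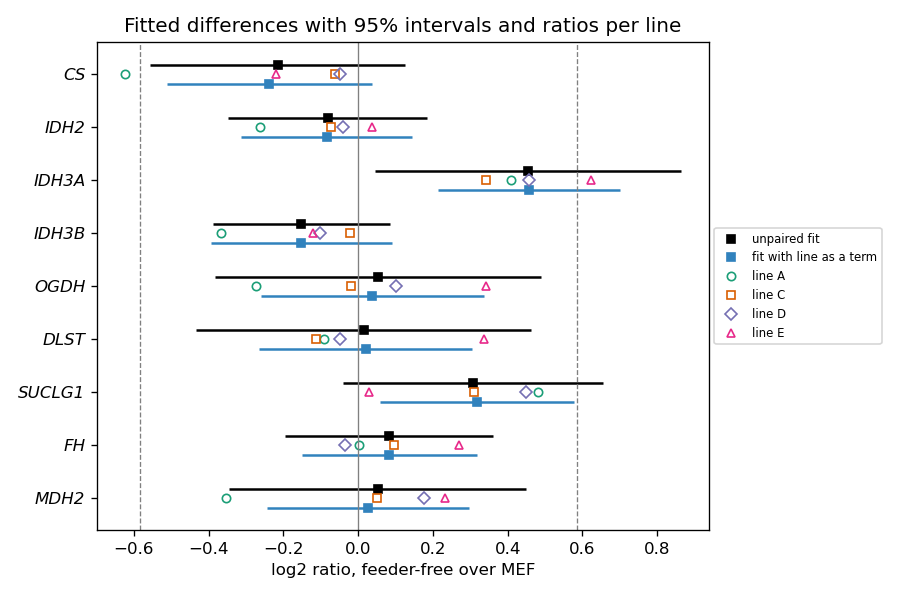
Log2 ratio of feeder-free over MEF (horizontal axis) for each enzyme, as fitted without pairing (black squares) and with line as a paired term (blue squares), with 95% confidence intervals as bars and the ratio of each line as an open symbol; dashed lines mark 1.5-fold. The intervals of IDH3A lie above 0 in both fits, and those of OGDH, DLST, FH and MDH2 span 0.

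The first step of the cycle is made by CS (chromosome 5, 57042171 to 57065008 of ARS-UCD2.0), the citrate synthase that condenses acetyl-CoA with oxaloacetate. It stood at 163, 171, 176 and 176 CPM in lines A, C, D and E on MEF and at 106, 164, 170 and 151 CPM in the same lines in feeder-free conditions. Each line was lower without feeders, and the feeder-free A library stood well below the other 7, while the feeder-free libraries of C and D lay inside the MEF range. The mean went from 171 ± 5.91 to 148 ± 28.8 CPM (SD, n = 4). On the log2 scale the fold change was -0.22, with a standard error of 0.15 and an edgeR adjusted P-value of 0.460. Without the feeder-free A library the fitted log2 fold change was -0.09. Citrate synthase is often used as a marker of mitochondrial content, and here its transcript did not pass the test.

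The oxidation of isocitrate to alpha-ketoglutarate is made in mitochondria by an NADP-dependent and an NAD-dependent enzyme. IDH2 (chromosome 21, 21478221 to 21494525) is the NADP-dependent form, a source of mitochondrial NADPH. It stood at 303, 292, 262 and 304 CPM on MEF and at 252, 278, 255 and 312 CPM in feeder-free conditions. The libraries of both conditions were intermingled, and the edgeR fit gave a log2 fold change of -0.08, with a standard error of 0.12 and an adjusted P-value of 0.752.

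IDH3A (chromosome 21, 30538337 to 30554570) encodes the catalytic subunit of the NAD-dependent enzyme, whose step is among those that set the pace of the cycle. It stood at 37.3, 53.4, 57.0 and 40.8 CPM in lines A, C, D and E on MEF and at 49.6, 67.7, 78.2 and 62.9 CPM in feeder-free conditions. Every line was higher without feeders, and the groups overlapped only because the feeder-free A library lay below the MEF libraries of C and D. The log2 ratios of the lines were 0.41, 0.34, 0.46 and 0.62. The mean went from 47.1 ± 9.53 to 64.6 ± 11.9 CPM (SD, n = 4), with a log2 fold change of 0.45 (95% confidence interval 0.04 to 0.86).

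That difference did not pass the unpaired edgeR test (P-value 0.0331 before and 0.188 after adjustment over all genes). With line as a paired term the log2 fold change was 0.46 (95% confidence interval 0.21 to 0.70) and the edgeR adjusted P-value 0.0229, so the gene passed the adjusted threshold there and missed the fold threshold. Without both libraries of line A the paired value was 0.47 on the log2 scale, with an edgeR adjusted P-value of 0.0427. Of the sum of squares of its log2 CPM over the 8 libraries, 46.1% fell to condition, 51.5% to line and 2.37% to neither.

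IDH3B (chromosome 13, 52514490 to 52519431) encodes a regulatory subunit of the same enzyme. It stood at 99.6, 88.6, 89.7 and 101 CPM on MEF and at 77.2, 87.3, 83.6 and 92.5 CPM in feeder-free conditions. Each line was lower without feeders, by very little in line C, and the ranges overlapped. The log2 fold change was -0.15, with a standard error of 0.11 and an edgeR adjusted P-value of 0.453. Its annotated span shares 4 bases with NOP56, which had 8390 to 32131 counts per library and a log2 fold change of 0.54 (edgeR adjusted P-value 0.0619), and whether the counting used strand is not given in the sources used here. By the same annotation CS shares 205 bases with IL23A and MDH2 shares 738 with STYXL1, genes with at most 76 and 182 counts, and SUCLG1 overlaps the locus LOC101903367.

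The alpha-ketoglutarate dehydrogenase complex makes succinyl-CoA. OGDH (chromosome 4, 76758600 to 76768457) encodes its first component, which decarboxylates the substrate. It stood at 23.9, 32.3, 31.7 and 24.3 CPM on MEF and at 19.7, 31.9, 34.0 and 30.7 CPM in feeder-free conditions. Lines A and E were the low ones on MEF, and without feeders only line A was low. The log2 fold change was 0.05, with a standard error of 0.19 and an edgeR adjusted P-value of 0.913.

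DLST (chromosome 10, 86138285 to 86156260) encodes the second component of the complex, which carries the lipoyl arm and transfers the succinyl group. It stood at 22.3, 34.7, 33.2 and 23.6 CPM on MEF and at 20.9, 32.0, 32.1 and 29.8 CPM in feeder-free conditions. The same libraries were low as for OGDH, and the conditions overlapped almost wholly. Its log2 fold change of 0.01 (standard error 0.20, edgeR adjusted P-value 0.980) was the smallest in size among the members, and 2.76% of all genes tested had a smaller one. The span of DLST shares 4973 bases with RPS6KL1, which had 1747 to 5730 counts per library and a log2 fold change of 0.26 (edgeR adjusted P-value 0.322), so DLST counts are less certain if strand was not used.

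SUCLG1 (chromosome 11, 50516911 to 50551411) encodes the alpha subunit of succinyl-CoA ligase, common to the forms that make GTP and ATP. It stood at 74.7, 64.0, 61.0 and 91.2 CPM on MEF and at 104, 79.3, 83.2 and 93.0 CPM in feeder-free conditions. Lines A, C and D were higher without feeders and line E differed by little, its MEF library lying above the feeder-free libraries of C and D. The mean went from 72.7 ± 13.7 to 90.0 ± 11.1 CPM (SD, n = 4). On the log2 scale the fold change was 0.31, with a 95% confidence interval of -0.04 to 0.65 and an edgeR adjusted P-value of 0.289. The paired fit gave 0.32, with an interval of 0.06 to 0.58 and an edgeR adjusted P-value of 0.0909, which does not pass.

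The last members return fumarate to oxaloacetate. FH (chromosome 16, 35260924 to 35288031) is fumarate hydratase, which makes malate. It stood at 126, 148, 155 and 128 CPM on MEF and at 126, 159, 151 and 155 CPM in feeder-free conditions. Line A was alike in both conditions, line E had the largest difference, and the log2 fold change was 0.08 (standard error 0.12, edgeR adjusted P-value 0.758).

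MDH2 (chromosome 25, 34254272 to 34267804) is the mitochondrial malate dehydrogenase, which closes the cycle and also works in the malate-aspartate shuttle. It stood at 284, 334, 348 and 294 CPM on MEF and at 223, 346, 392 and 346 CPM in feeder-free conditions. The feeder-free libraries held both the lowest value, in line A, and the highest, in line D, so that their SD of 72.7 CPM was above the 30.6 CPM of the MEF libraries. The log2 fold change was 0.05 (standard error 0.18, edgeR adjusted P-value 0.908).

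Counts of lines that moved one way did not set the members apart from other genes. IDH3A and SUCLG1 were higher in 4 of 4 lines, 2 of 9 members against 20.2% of all genes tested. CS and IDH3B were lower in 4 of 4 lines, again 2 of 9, against 20.7% of all genes. The MEF and feeder-free ranges did not overlap for 0 of the 9, against 14.6% of all genes.

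Line, which has 3 degrees of freedom to the 1 of condition, took the larger part of the variation in every member but IDH3B. The share of the sum of squares of log2 CPM that fell to line was 81.8% for OGDH, 88.3% for DLST, 72.4% for FH and 76.2% for MDH2, while condition took 0.503%, 0.153%, 9.15% and 0.306% of it. Over all genes the medians were 49.5% for line and 18.8% for condition. For IDH3B the shares were 27.7% for line and 42.1% for condition.

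**Figure D3:**
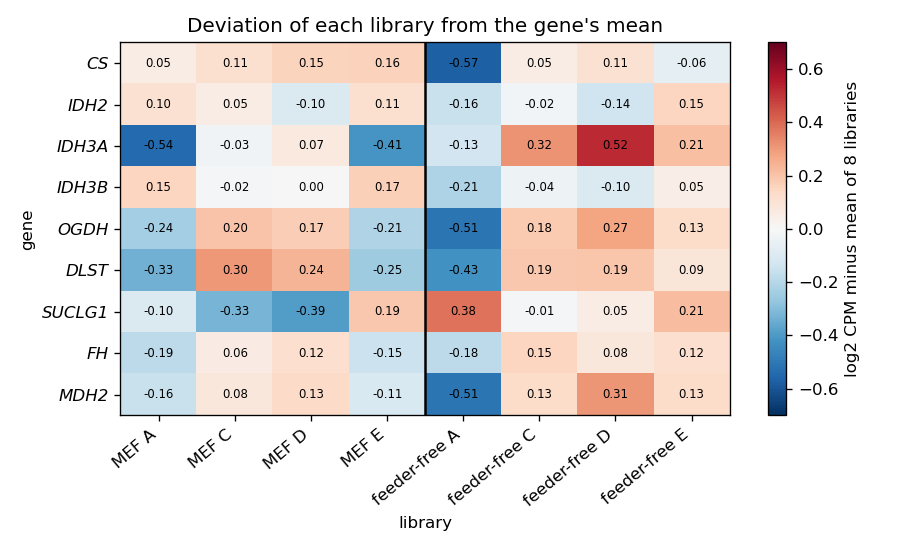
Deviation of log2 CPM in each library from the mean of that gene over the 8 libraries, with genes as rows, libraries as columns, MEF left of the black line, and the colour scale from blue (lower) to red (higher). The feeder-free A library is low for every gene but SUCLG1, and IDH3A is highest in feeder-free D, at 0.52 above its mean.

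On MEF, the libraries of lines C and D both stood above those of A and E for 5 members, IDH3A, OGDH, DLST, FH and MDH2, against 28.3% of all genes. In feeder-free conditions line E joined C and D, and line A stayed behind. The feeder-free A library was the lowest of its condition for 8 of the 9 members, against 33.1% of all genes. SUCLG1, the exception, was at its highest there. On MEF the library of line A was the lowest for 6 of the 9, against 24.2% of all genes.

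The 9 members together summed to 1134, 1218, 1213 and 1183 CPM in lines A, C, D and E on MEF and to 978, 1244, 1279 and 1273 CPM in feeder-free conditions. The means were 1187 ± 38.7 and 1194 ± 144 CPM (SD, n = 4). The sum was thus lower without feeders in line A and somewhat higher in the other lines. The median log2 ratio over the members was -0.26 in line A, -0.02 in C, -0.03 in D and 0.23 in E. In line A mitochondrially encoded transcripts took 4.11% of counts on MEF and 4.01% without feeders, against 1.91% to 2.25% in the other MEF libraries and 2.18% to 3.73% in the other feeder-free ones. Whether this has a part in the low values of the feeder-free A library was not tested.

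Over the 8 libraries, which share 4 lines, OGDH, DLST, FH and MDH2 went together. Pearson's r of log2 CPM was 0.97 for OGDH with MDH2, 0.96 for OGDH with DLST, and 0.93 for DLST with FH. IDH2 with IDH3B had 0.83. SUCLG1 ran against most members, with -0.66 against CS and -0.63 against DLST, and IDH3A with IDH3B, subunits of a single enzyme, had -0.56. These are descriptions of 8 libraries.

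A ratio of counts within a library does not depend on the scaling between libraries. The ratio compares a pair of genes between libraries only, since transcript length was not used. OGDH and DLST, successive components of the alpha-ketoglutarate dehydrogenase complex, kept a DLST to OGDH ratio of 0.933, 1.07, 1.05 and 0.973 in lines A, C, D and E on MEF and of 1.06, 1.00, 0.943 and 0.971 without feeders. The mean log2 difference between conditions was -0.02 ± 0.15 (SD over 4 lines), with no common direction among the lines.

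**Figure D4:**
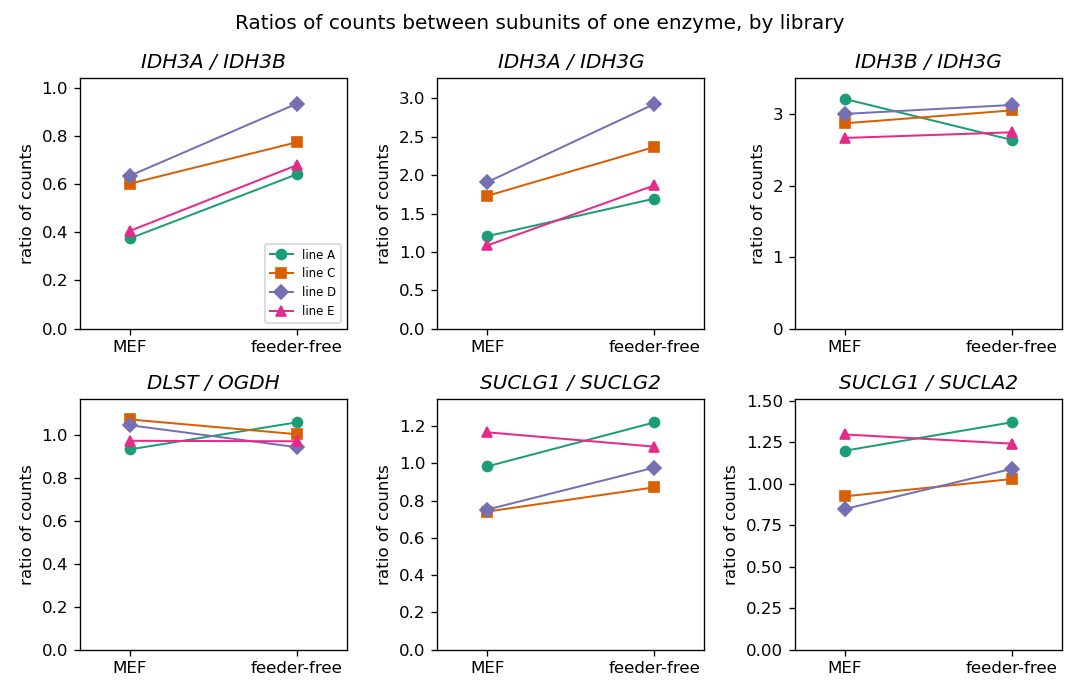
Ratio of counts between subunits of a single enzyme in each library (vertical axes from 0), with the MEF and feeder-free libraries of a line joined. The IDH3A to IDH3B ratio is higher without feeders in every line and its ranges do not overlap, whereas the IDH3B to IDH3G and DLST to OGDH ratios have no common direction.

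For the NAD-dependent isocitrate dehydrogenase, the catalytic transcript was set against the regulatory ones. The IDH3A to IDH3B ratio, chosen after its values were seen and so given without a test, was 0.375, 0.603, 0.636 and 0.406 on MEF and 0.642, 0.775, 0.936 and 0.680 in feeder-free conditions. All feeder-free values lay above all MEF values, by a mean log2 difference of 0.61 ± 0.19 over the lines. Ratios of IDH3A to any other tested gene were higher without overlap for 21.6% of genes.

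Against IDH3G, the other regulatory subunit, IDH3A was higher without feeders in 4 of 4 lines, by a mean log2 difference of 0.59 ± 0.15, with ranges that overlapped. The IDH3B to IDH3G ratio had a mean log2 difference of -0.02 ± 0.17. The ratio of SUCLG1 to its GTP-forming partner SUCLG2 was higher in 3 of 4 lines (mean log2 difference 0.21 ± 0.21), and that to the ATP-forming partner SUCLA2 was too (0.16 ± 0.18). Of the 36 ratios among the 9 members, 9 had ranges that did not overlap between conditions, against 12.7% of the ratios among all tested genes, and 6 of those 9 held IDH3A. These were 6 of the 8 ratios with IDH3A, whose ratios to any tested gene did not overlap, in either direction, for 22.7%. The pairs share genes and are not independent. The other 3 were CS to FH, CS to MDH2 and IDH3B to SUCLG1, each lower in its first gene without feeders.

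The 5 genes outside the list whose log2 CPM most resembled the members' mean standardised profile over the 8 libraries were PREP, ACOT7, ACAA1, ABCF2 and CLASRP, with Pearson's r of 0.969, 0.966, 0.961, 0.958 and 0.954. Their own log2 fold changes between conditions lay between -0.04 for ABCF2 and 0.10 for ACOT7. The members' own r with this profile ran from 0.951 for MDH2 to -0.40 for SUCLG1, so a mean over the members mostly describes MDH2, OGDH, FH and DLST.

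The rest of the cycle gave the same count. Of 10 other cycle enzymes tested, 0 were called in the unpaired or the paired edgeR fit, 5 had a positive and 5 a negative log2 fold change, and the median was -0.01. The smallest P-value was that of SDHC, a membrane anchor of succinate dehydrogenase, with 0.33 on the log2 scale (edgeR adjusted P-value 0.333). The subunits of this enzyme, which is also complex II of the respiratory chain, did not share a direction. SDHC and SDHD, the membrane anchors, had higher values without feeders in 4 of 4 lines, and SDHA, the flavoprotein, had lower values in 4 of 4.

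DLD, the third component of the alpha-ketoglutarate dehydrogenase complex, went from 103 ± 11.6 to 111 ± 4.71 CPM (SD, n = 4), with an edgeR adjusted P-value of 0.625. SUCLA2 went from 68.4 ± 4.29 to 76.1 ± 0.934 CPM without overlap, and did not pass (edgeR adjusted P-value 0.399). Of 9 extramitochondrial counterparts and carriers, 0 were called by any of these tools. MDH1, the cytosolic malate dehydrogenase, had the smallest P-value among them, with a log2 fold change of 0.22 (edgeR adjusted P-value 0.328).

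Carbon enters the cycle as acetyl-CoA from pyruvate and as alpha-ketoglutarate from glutamine. Of 12 tested genes of pyruvate entry, 0 were called by edgeR without pairing, DESeq2 or limma-voom. PDK1, the kinase that switches off pyruvate dehydrogenase, stood at 130 ± 36.6 CPM on MEF and 72.4 ± 41.5 CPM without feeders (SD, n = 4). Its log2 fold change was -0.84 with an edgeR adjusted P-value of 0.236, and with line as a paired term it was -0.98 with 0.0212, a call. PDHA1 and PDHB, the subunits of the decarboxylating component of pyruvate dehydrogenase, had unpaired log2 fold changes of -0.40 and 0.44 that were not called. The PDHB to PDHA1 ratio of counts was higher without feeders in 4 of 4 lines, by a mean log2 difference of 0.83 ± 0.38. Its ranges did not overlap, as for 12.7% of the ratios among all tested genes. This pair was chosen after its values were seen. By adjusted P-value alone the paired fit passed 1 of the 12 genes as higher and 2 as lower.

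Of 11 tested genes of anaplerosis and glutamine use, 0 were called by edgeR, paired or not, DESeq2 or limma-voom. GLUD1, which turns glutamate into alpha-ketoglutarate, stood at 1139 ± 70.3 CPM on MEF and 857 ± 88.9 CPM without feeders, without overlap, with a log2 fold change of -0.41 (edgeR adjusted P-value 0.106). Its adjusted P-value was 0.0256 in the paired edgeR fit and 0.0172 in DESeq2, so there it missed only the fold threshold. Of 7 lipoylation genes, which supply the cofactor that DLST carries, 0 were called by edgeR, paired or not, or by limma-voom, and DESeq2 called FDX2. FDX2, a ferredoxin of iron-sulfur cluster synthesis, stood at 10.9 ± 0.800 and 16.5 ± 2.73 CPM, also without overlap, with a log2 fold change of 0.59 (edgeR adjusted P-value 0.0804), and DESeq2 gave 0.60 with an adjusted P-value of 0.00765. The paired fit gave 0.58 with an edgeR adjusted P-value of 0.0397, just under the fold threshold, and 0.0600 once corrected for gene span.

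Structural and transport proteins of mitochondria serve as markers of their content. Of 15 such genes 1 was called, CYCS, the electron carrier cytochrome c, which rose from 34.5 ± 2.82 to 66.1 ± 2.92 CPM (log2 fold change 0.94, edgeR adjusted P-value 0.0233). The median of the list was 0.05. Of 12 regulators of mitochondrial biogenesis 0 were called by the unpaired edgeR quasi-likelihood test and by limma-voom, whereas the paired fit, the likelihood ratio test and DESeq2 called PPARGC1A as lower. This coactivator stood at 1.16 ± 0.339 and 0.415 ± 0.149 CPM, with a log2 fold change of -1.50 in the paired fit (edgeR adjusted P-value 0.0486). A correction for gene span in the paired fit ended that call for PPARGC1A (-1.20, edgeR adjusted P-value 0.0941).

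**Figure D5:**
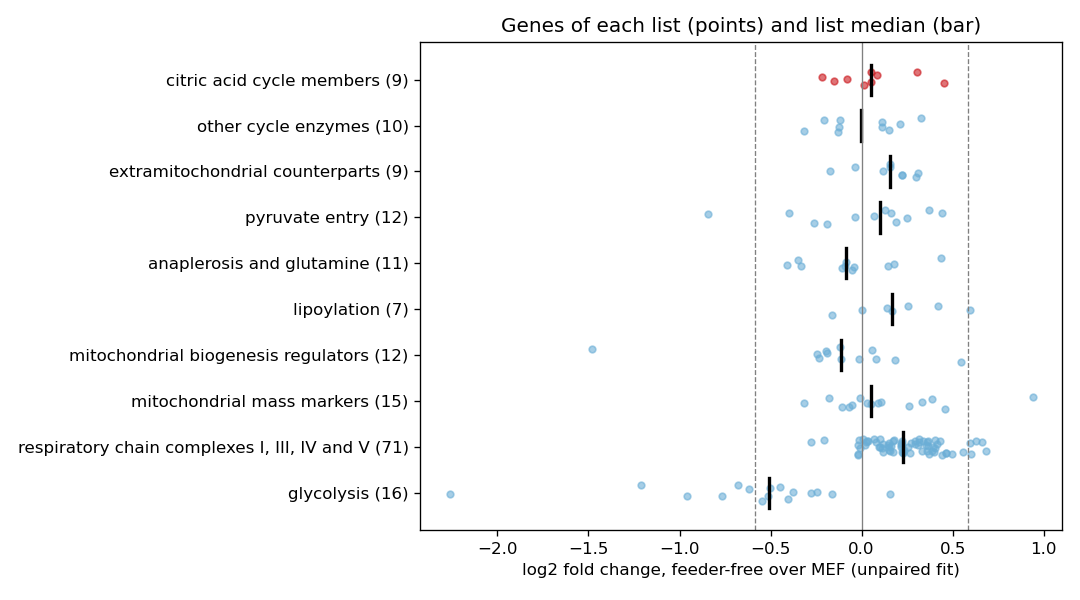
Log2 fold change of feeder-free over MEF (horizontal axis, unpaired fit) of every tested gene (points) of the 9 members and of 9 other lists, with the number of tested genes in brackets, the median of each list as a black bar, and dashed lines at 1.5-fold. The members lie between -0.22 and 0.45, inside 1.5-fold, and the glycolysis genes mostly lie left of 0.

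Glycolysis delivers pyruvate upstream of the cycle, and the respiratory chain takes up its electrons downstream. Of 71 respiratory chain genes 64 had a positive log2 fold change, with a median of 0.23, against 0.01 over all genes. NDUFS3, a core subunit of complex I, was the only call of the unpaired quasi-likelihood test (0.68, edgeR adjusted P-value 0.0495), and limma-voom did not call it. The paired fit and DESeq2 also called UQCRB and UQCRQ of complex III, which came to 0.54 and 0.54 on the log2 scale, under 1.5-fold, once the paired fit was corrected for gene span. Of 16 glycolysis genes 15 had a negative value, with a median of -0.51. HK2, PFKL, PFKM and ENO1, enzymes of the pathway, fell, with log2 fold changes of -1.21, -0.68, -0.96 and -0.77. The paired fit also called PGK1 as lower, and with the span correction GAPDH and ENO2 too. By adjusted P-value alone the paired fit passed 14 respiratory chain genes as higher and 0 as lower. For glycolysis 11 passed as lower and 0 as higher, and over all genes 1207 passed as higher and 1279 as lower. The unpaired calls of HK2, PFKL, PFKM, ENO1, CYCS and NDUFS3 were lost in 7 of the 8 fits that left out a single library, with no change of direction. The exception was the fit without feeder-free A. Over all genes those 7 fits called at most 1 as higher and at most 5 as lower, against 114 and 158 with all libraries.

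By line, the glycolysis median was -0.65 in A, -0.25 in C, -0.54 in D and -0.43 in E, and the respiratory chain median 0.29, 0.18, 0.42 and 0.15. The median of the 9 cycle enzymes, given above, changed sign between lines. These list medians were set side by side as descriptions, and the differences between lists were not tested.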

How the data were processed

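The authors trimmed the reads with Trimmomatic, aligned them to ARS-UCD2.0 with STAR, dropped optical duplicates and low-quality alignments, and deposited raw counts per gene from featureCounts (Subread 1.6.2), not normalized; strand is not given in the sources used here. Their methods also describe subtracting reads of a pure MEF sample, not analysed here, for the cells grown on MEF. What this step does to the comparison of conditions was not tested. The labels name Trizol for the RNA, the methods a column kit. Counts were used as deposited, with 0 sample columns unused and 3 genes without values left out.

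Counts were filtered with filterByExpr, scaled by TMM and tested with edgeR 4.0.16 in R 4.3.3 (glmQLFit, glmQLFTest) on condition alone, as the methods name no paired term, and P-values of 15744 genes were adjusted by the Benjamini-Hochberg method. The thresholds were 0.05 for the adjusted P-value and 1.5-fold for the change. Log2 CPM used a prior count of 2. Total counts were 44268717 to 102351560 per library, and within conditions no 2 libraries agreed within sampling noise. Coordinates came from RefSeq on ARS-UCD2.0, with 30281 genes matched.

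The line letter pairs the libraries, as the same 4 lines were grown in both conditions. Deviations from the condition mean correlated at 0.582, 0.557, 0.664 and 0.421 within lines A, C, D and E, and at most at 0.249 between lines.

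Members and lists were chosen with earlier results of these data known. All 9 members were named, with, from each other list, genes called in the unpaired or paired fit, otherwise the gene with the smallest P-value, and the 5 genes most like the members' profile. Alternatives were RLE size factors, no scaling, no mitochondrially encoded genes, other filters, the likelihood ratio test, DESeq2 1.42.0, limma-voom (limma 3.58.1), the replicate block with and without a gene span correction, other fold thresholds and each library left out.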

Additional observations from a re-analysis of the deposited data

Results flagged for a closer look

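Of 112 groups of 4 values examined, 7 had a library far from the other 3 by Dixon's criterion, where chance gives 5.6. For DLST, log2 CPM was 4.39 in the feeder-free library of line A and 4.90 to 5.01 in the others. The summed CPM of the 9 enzymes was 978 in that library and 1244 to 1279 in the other feeder-free ones. IDH3G was at 5.24 log2 CPM in the MEF library of line E, with the others at 4.90 to 4.96. SUCLG2 was at 6.51 log2 CPM in the feeder-free library of line C, with the others at 6.41 to 6.42. KRT7, an epithelial keratin, was at 5.20 log2 CPM in the MEF library of line A, with the others at 4.25 to 4.39. The total count of the feeder-free library of line D was 102351560, with the others at 49671478 to 51320214. Mitochondrially encoded transcripts took 4.11% of counts in the MEF library of line A and 1.91% to 2.25% in the other MEF libraries.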

How the results depend on the processing

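The calls of the 9 members, and of the 10 other cycle enzymes, stayed at 0 higher and 0 lower at the 1.5-fold threshold in the unpaired fit under each alternative, single libraries left out included. They were also 0 in the paired fit (replicate block), which was run as it is, with the span correction and without line A, and which gave 1 member higher without a fold threshold. Of the 9 members, 6 kept their sign throughout. Values near 0 changed sign: with the replicate block and a gene span correction OGDH was at -0.031, DLST at -0.0039 and MDH2 at -0.022, and with single libraries left out OGDH ran from -0.029 to 0.20, DLST from -0.088 to 0.14 and MDH2 from -0.047 to 0.20. SDHB was at 0.0026 without line A. IDH3A stayed between 0.35 and 0.56, with adjusted P-values of 0.0229 to 0.407, and SUCLG1 between 0.23 and 0.43, with 0.0707 to 0.490. The members' median ran from -0.04 to 0.15 with single libraries left out. The interval lay within 1.5-fold for 4 members when the MEF C or MEF D library was left out, and for at most 7 without any other single library.

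The background moved far more. Genes called higher and lower over all genes were 869 and 713 with the replicate block (paired). The paired counts were 834 and 644 with the span correction added, and 1207 and 1279 with no fold threshold. Without pairing, the counts were 118 and 186 with no fold threshold, 448 and 389 by the likelihood ratio test, and 695 and 516 by DESeq2. They were 73 and 97 without a filter, and 70 and 48 at 2-fold. A minimum of 10 counts in every library gave 199 higher, and no scaling gave 91 lower. Without single libraries 0 to 259 were higher and 0 to 231 lower, the most when the feeder-free A library was left out. With any other library left out, at most 1 was higher and at most 5 lower. So few genes were called there that the 0 calls among the members say little. Without line A, an alternative chosen after seeing the data, there were 13 and 7, and 918 and 733 in the paired fit. NDUFS3, HK2 and PFKL lost their unpaired calls without scaling, and NDUFS3, PFKL and ENO1 without a filter. The median of the respiratory chain genes was 0.16 with the span correction. Counting error was at most 3.28% of a member's value, and what else sets the width of the intervals was not tested.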
